A study of Homo sapiens with 6 samples.

Results

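Chromatin accessibility was described around 10 genes of the Notch pathway, out of 20033 protein-coding genes: the receptors NOTCH1, NOTCH2 and NOTCH3, the ligands DLL1, JAG1 and JAG2, and the effectors HES1, HES6, HEY1 and HEYL. The genes were chosen by their place in the pathway. Overlapping peaks of 6 ATAC-seq libraries were merged into 105569 regions, and a region was given to a gene when its highest summit lay in the gene body or within 50 kb of it (hg38, GENCODE version 44), which gave 144 regions. In ATAC-seq, Tn5 transposase cuts accessible DNA and tags it for sequencing. The cells were RH30, an established alveolar (fusion-positive) rhabdomyosarcoma line grown in RPMI with fetal bovine serum, and both groups received Cas9. There were 3 libraries from vector cells, which carried scramble guides (sgRNA scramble), and 3 from MyoD-deleted cells (sgRNA targeting MyoD). The labels call them biological replicates without saying whether they were separate cultures or clones, so the p-values measure the spread between these libraries, which may be technical. Whether the cells also carried the IκBα super repressor used elsewhere in the study was not settled by the sources. The question was how the loss of MyoD changed open chromatin near these genes.

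Notch receptors are membrane proteins that are cut when a Delta or Jagged ligand on a neighbouring cell binds them. The released intracellular part enters the nucleus and joins the DNA-binding protein RBPJ to switch on genes such as the HES and HEY repressors. In skeletal muscle the pathway is known for keeping satellite cells and myoblasts from differentiating, and DLL1 is one of its ligands in developing muscle. MyoD, the bHLH factor deleted here, binds E boxes, and HES and HEY proteins are bHLH repressors that can act against it, while HES6 differs in that it opposes HES1.

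Each library was deposited as 1 list of peaks, with 63140 to 80608 peaks on the main chromosomes. The lists hold no read totals, so depth is unknown, and counting error could not be given for single values. The pileup at each summit was recovered from its fold enrichment and its −log10 p, and the smallest background of a library, which follows depth, was 2.22 to 3.41 fragments. Summit height is given below as log2 of this pileup over the library's smallest background, centred on the median of the 47885 regions called in all 6 libraries, so that 0 is a typical region. Heights correlated by rank at 0.957 to 0.978 between libraries of one group and at 0.867 to 0.913 across groups. The 7 muscle and rhabdomyosarcoma markers examined (MYOD1, MYOG, DES, FGFR4, PAX3, CHRNG and MYMK) had a region within 2 kb of the 5′ end in every library. At MYOD1 itself the 5′ height fell from 2.84 ± 0.0943 to 2.36 ± 0.189 (SD, n = 3 each, adjusted p = 0.00210, limma), and accessibility does not show whether the protein was lost. Among markers of other cell types, PTPRC, CD3E, CDH1 and PECAM1 had no such region in any library. EPCAM had one in 2 vector and 3 MyoD-deleted libraries, KRT8 in 2 MyoD-deleted libraries and CDH5 in 3 MyoD-deleted libraries. The part of other cells in the differences below was not tested.

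Of the 144 regions, 84 were called in all 6 libraries and were tested, and 47 lay in the body of a member gene. At an adjusted p under 0.05 (limma over 47885 regions, Benjamini-Hochberg), 22 of the 84 were lower in MyoD-deleted cells (26.2%, against 12.8% of all regions tested) and 5 were higher (5.95%, against 11.4%). The lower regions belonged to DLL1 (6), JAG2 (6), NOTCH1 (3), HES1 (2), HEYL (2), NOTCH3 (1), HES6 (1) and HEY1 (1), and the higher ones to NOTCH2 (3), DLL1 (1) and JAG1 (1). The median change over the 84 regions was −0.10, beside 0.04 over all regions tested, and 51 of the 84 had a change below 0, compared with 45.2% of all regions. In 20 of the 22 lower and in all 5 higher regions the libraries of the groups did not overlap, where 37.9% of all regions tested had groups that did not overlap. Regions past the test were chosen on these same heights, so the shares are not like for like and the separation adds no support. By role, 12 of 24 ligand regions (50%), 6 of 24 effector regions (25%) and 4 of 36 receptor regions (11.1%) were lower, beside 12.8% of all regions tested. The 12 ligand regions were those of DLL1 (6 of 9) and JAG2 (6 of 10), while 0 of 5 were lower at JAG1. Thus 12 of the 22 lower regions lay at DLL1 and JAG2, and the 26.2% was not spread evenly over the 10 genes. FAM120B or NUDT14, and not the ligand, has the nearest 5′ end to each of the 12 except the region in JAG2 intron 5.

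**Figure D1:**
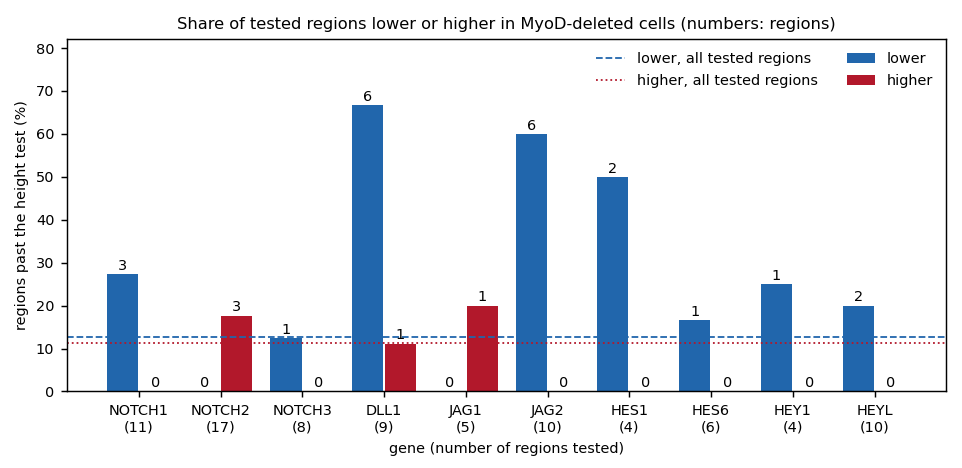
Bars show the percentage of the regions tested for each gene that were lower (blue) or higher (red) in MyoD-deleted cells by summit height, with the number of regions over each bar and the number tested under each name. Dashed and dotted lines mark the same shares over all regions tested (12.8% lower and 11.4% higher). DLL1 and JAG2, with 6 lower regions each, stand highest.

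The count of lower regions depended on the measure. When regions were compared by the rank of their fold enrichment within a library, 4 of 84 were lower (4.76%, against 4.67% of all regions) and 2 were higher (2.38%, against 4.12%), which is near the background for lower regions. The 4 lower by rank were all among the 22 lower by height. Without centring, 15 regions were lower (17.9%, against 8.03%) and 13 higher (15.5%, against 24.7%). Centring moved the median of all tested regions from 0.23 to 0.04. Fold enrichment divides the pileup by the local background, which the peak caller takes from the reads around the summit in the same library. At 22 of the 22 lower regions this background fell with MyoD deletion, its log2 change running from −1.13 to −0.0891, and at all 5 higher regions it rose (0.0154 to 0.71). Over the genome it fell at 98.4% of all lower regions and at 49.5% of all tested regions. Its part in the changes of height was not tested.

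**Figure D2:**
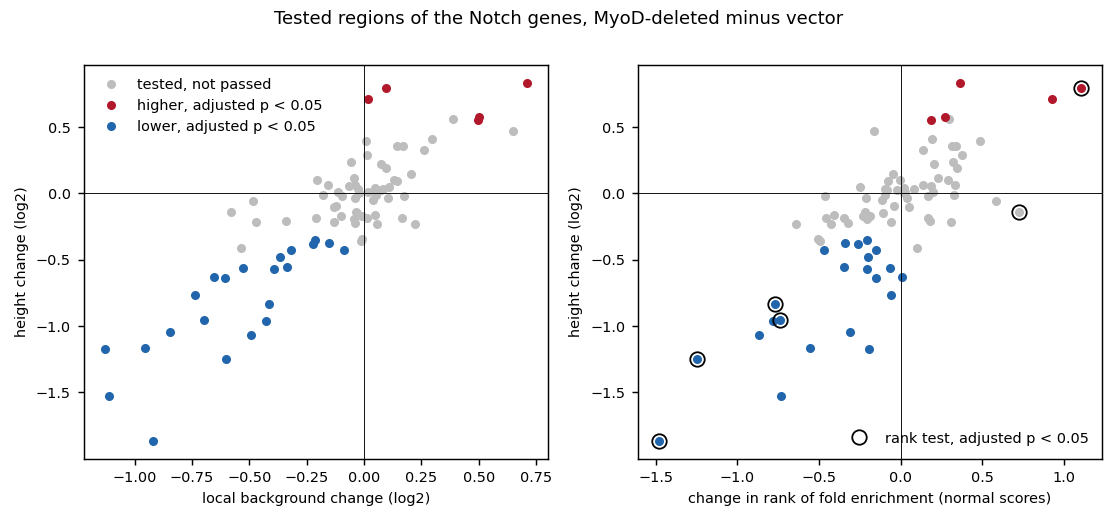
Each point is 1 of the 84 tested regions, with the change of summit height (log2, MyoD-deleted minus vector) on the vertical axis. The horizontal axis is the change of local background (log2) on the left and the change in rank of fold enrichment (normal scores) on the right, where black rings mark regions past the rank test. All 22 lower regions (blue) lie left of 0 on the left panel, and only 4 of them carry a ring on the right.

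Gained regions, called in 3 of 3 MyoD-deleted and 0 of 3 vector libraries, numbered 3 of 144 (2.08%, against 4.56% of all regions). They lay at NOTCH3 (2) and HES6 (1). A single region, at NOTCH1, was lost in the reverse sense (0.694%, against 1.78%). Of the 60 regions not called in all libraries, 35 were called in more MyoD-deleted than vector libraries and 16 in more vector libraries (58.3% and 26.7%, beside 61.7% and 29.7% of all such regions). MyoD-deleted libraries 2 and 3 also had the most peaks.

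**Figure D3:**
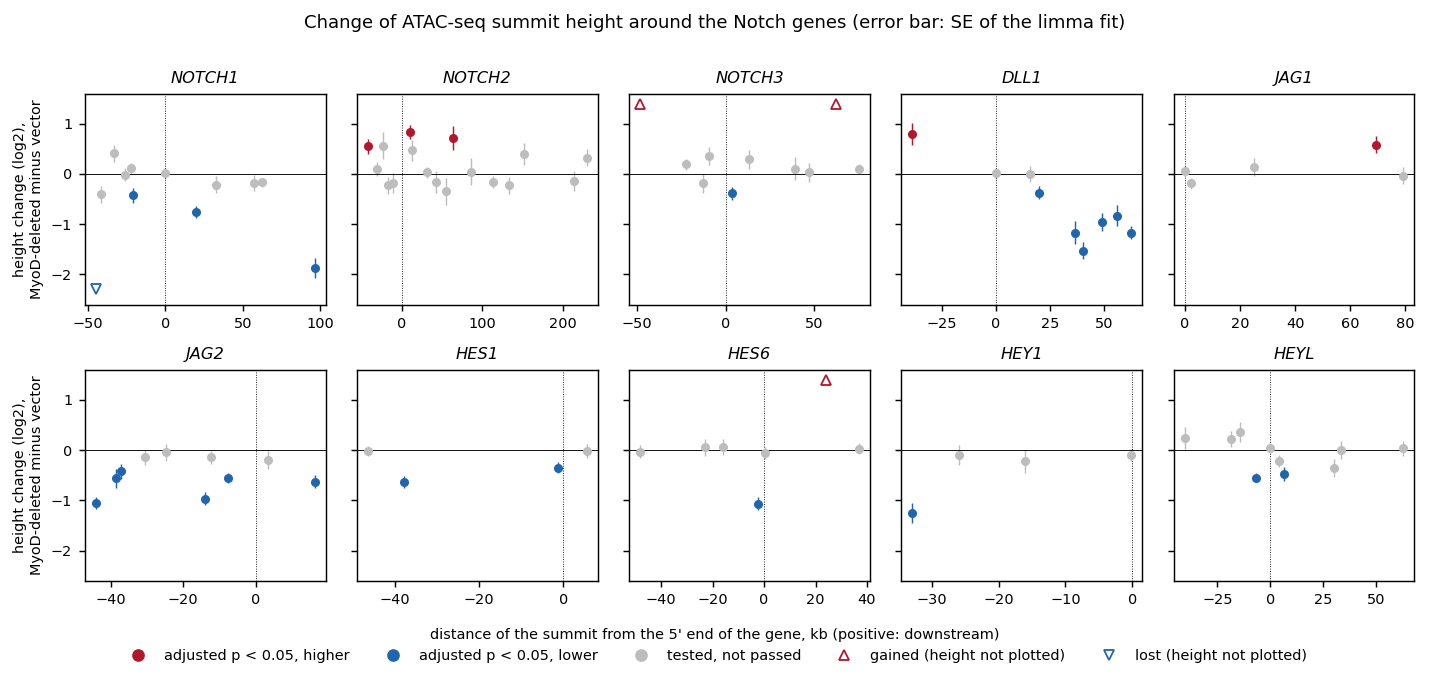
Each panel shows 1 gene, with the distance of the summit from the 5′ end (kb, positive downstream) on the horizontal axis and the change of summit height (log2, MyoD-deleted minus vector) on the vertical axis. Points are regions called in all 6 libraries with the SE of the limma fit, blue where lower and red where higher at an adjusted p under 0.05. Open triangles mark 3 gained regions and 1 lost region, whose change was not computed. The run of 5 blue points from 36.3 to 62.5 kb downstream of the DLL1 5′ end and the blue points upstream of JAG2 stand away from the 5′ ends, most of which lie near 0.

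At the 5′ ends little moved. Of the 10 genes, 7 had a region within 2 kb of the GENCODE 5′ end, and all 7 were called in every library. Only the HES1 region passed the test, with a lower height. Over the genome, 3.38% of 5′ regions were lower and 3.73% higher. In vector libraries the mean height was 2.51 ± 0.120 (SD, n = 3) at HEYL, 2.50 ± 0.282 at NOTCH1, 2.16 ± 0.243 at HES6, 1.92 ± 0.161 at HES1, 1.89 ± 0.243 at HEY1, 1.89 ± 0.162 at JAG1 and 1.74 ± 0.168 at DLL1. Each gene's libraries overlapped with those of its neighbour in this order. In MyoD-deleted libraries the order was the same except that HES1 had the lowest height, at 1.57 ± 0.0993 (SD, n = 3), and JAG1 stood above HEY1. The changes of the other 6 were −0.11 at HEY1, −0.05 at HES6, 0.01 at DLL1, 0.01 at NOTCH1, 0.04 at HEYL and 0.06 at JAG1, each with an SE of 0.0989 to 0.119 and an adjusted p of at least 0.579 (limma).

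**Figure D4:**
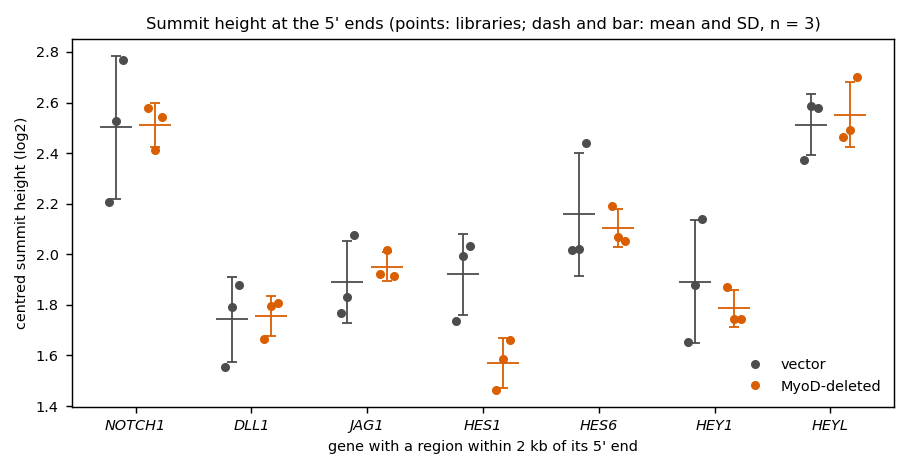
Centred summit height (log2) at the 5′ ends of 7 genes, with 1 point per library, a dash for the mean and a bar for the SD (n = 3 per group; grey, vector; orange, MyoD-deleted). The groups overlap at 6 genes. At HES1 the MyoD-deleted libraries lie between 1.46 and 1.66 and the vector libraries between 1.74 and 2.03.

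NOTCH2, NOTCH3 and JAG2 had no region within 2 kb of the GENCODE 5′ end. For NOTCH2 this end belongs to a longer transcript. At the start of its MANE Select transcript, an alternative added after the data were seen, NOTCH2 had its highest region, with a summit 11 bp inside, a mean height of 2.45 ± 0.144 in vector cells against 2.48 ± 0.134 after MyoD deletion (SD, n = 3 each) and a change of 0.03 (SE 0.102). DLL1 likewise had a region 153 bp inside its MANE Select start, with a change of −0.01 (SE 0.159). NOTCH3 and JAG2 had none there either.

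Around NOTCH1, on chromosome 9 (136494433 to 136546048, minus strand, ENSG00000148400.13), 21 regions were found, 11 were tested and 3 were lower. The receptor's own intron 2 held one of them, 19.7 kb downstream of the 5′ end (136525406 to 136527361). Its heights were 2.48, 2.75 and 2.91 in vector and 1.96, 1.73 and 2.16 in MyoD-deleted libraries, a change of −0.76 (SE 0.122, adjusted p = 0.000186, limma). Every MyoD-deleted library was below every vector library. The region stood at the 96.8th percentile of height in vector cells. By rank of fold enrichment it did not pass (adjusted p = 0.864). The change of −1.86 (SE 0.201, adjusted p = 4.79e-06) was the greatest in size among the 84, and it lay 96.4 kb downstream, in intron 23 of SEC16A (136448858 to 136449924), where INPP5E has the nearest 5′ end. Heights there were 0.12, 0.73 and 0.42 in vector and −1.27, −1.72 and −1.33 in MyoD-deleted libraries, so that the groups were well apart. This region also passed by rank (adjusted p = 0.00436). The third, 21.1 kb upstream and outside any protein-coding gene, changed by −0.43 (SE 0.142, adjusted p = 0.0350) from vector heights of 0.64, 0.92 and 0.68 to 0.33, 0.15 and 0.48. It lost its call without vector replicate 2 (−0.34, adjusted p = 0.182), vector replicate 3 (−0.46, 0.0610), MyoD-deleted replicate 1 (−0.43, 0.0889) or MyoD-deleted replicate 2 (−0.34, 0.149), without centring (−0.24, 0.260) and by rank (0.260). The lost region lay 44.9 kb upstream (136590569 to 136591313), with low vector heights of −1.05, −0.56 and −0.26. NOTCH1's highest region, in the body of SEC16A 62.5 kb downstream, changed by −0.17 (SE 0.0911, adjusted p = 0.203).

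NOTCH2, on chromosome 1 (119911553 to 120100779, minus strand, ENSG00000134250.21), had the most regions of the 10 genes, 33, of which 17 were tested, 3 were higher and 0 lower by limma (5 and 0 at an unadjusted p under 0.05). By rank 0 passed in limma, with 1 higher and 3 lower at an unadjusted p under 0.05, and without centring 7 were higher. Sequence near NOTCH2 is shared with its NOTCH2NL copies, and how reads were divided among them is not given in the sources used here, so these heights are uncertain. The region 9.71 kb downstream of the 5′ end, in the gene body upstream of the MANE Select start (120090565 to 120091273), had heights of −0.21, −0.22 and −0.16 in vector and 0.55, 0.81 and 0.54 in MyoD-deleted libraries. All MyoD-deleted libraries lay above all vector libraries, with a change of 0.83 (SE 0.146, adjusted p = 0.000422). In intron 1, 63.6 kb downstream (120036604 to 120037458), heights were −1.43, −1.64 and −2.24 in vector and −1.05, −1.34 and −0.77 in MyoD-deleted libraries, a change of 0.72 (SE 0.246, adjusted p = 0.0413). The call was lost without vector replicate 2 (0.78, adjusted p = 0.0683), vector replicate 3 (0.48, 0.192), MyoD-deleted replicate 1 (0.71, 0.106) or MyoD-deleted replicate 3 (0.57, 0.164). The third, 42.3 kb upstream and nearest to SEC22B, rose from 1.18, 0.51 and 0.57 to 1.33, 1.36 and 1.23, a change of 0.55 (SE 0.152, adjusted p = 0.0126). It did not pass without vector replicate 2 (0.43, adjusted p = 0.0853), vector replicate 3 (0.46, 0.0560) or MyoD-deleted replicate 1 (0.54, 0.0531).

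NOTCH3, on chromosome 19 (15159038 to 15200995, minus strand, ENSG00000074181.9), had 16 regions, of which 8 were tested and 1 was lower. That region lay in its intron 1, 3.39 kb from the 5′ end (15197062 to 15198291), with heights of 1.86, 2.12 and 2.27 in vector and 1.82, 1.43 and 1.86 in MyoD-deleted libraries. The groups touched without overlapping, and the change was −0.38 (SE 0.128, adjusted p = 0.0358). It did not pass by rank (adjusted p = 0.340), without centring (−0.19, adjusted p = 0.289) or without vector replicate 2 (−0.37, 0.131), vector replicate 3 (−0.29, 0.160), MyoD-deleted replicate 1 (−0.44, 0.0522) or MyoD-deleted replicate 2 (−0.24, 0.220). One of its gained regions lay 62.4 kb downstream (15137946 to 15138844, outside genes), with heights of −1.77, −2.46 and −1.84, which is near the lowest heights that were called. The highest region near NOTCH3 was the 5′ end of its neighbour ILVBL, with a change of 0.10 (SE 0.0944, adjusted p = 0.479).

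The letters around 3 receptor summits are shown, for the regions with the change of greatest size at NOTCH2 and NOTCH3 and for the lost region of NOTCH1. They cover 100 bp on each side of the summit (hg38, plus strand, positions from 1). Capitals mark the motifs searched, on either strand. These were the E boxes CAGCTG and, in the next place, CACCTG. For AP-1 the letters TGANTCA were used. For TEAD factors they were GGAATG. For RBPJ both TTCCCAC and the weaker form TTCTCAC were searched.
NOTCH1 44.9 kb upstream, lost (chr9:136590851-136591051): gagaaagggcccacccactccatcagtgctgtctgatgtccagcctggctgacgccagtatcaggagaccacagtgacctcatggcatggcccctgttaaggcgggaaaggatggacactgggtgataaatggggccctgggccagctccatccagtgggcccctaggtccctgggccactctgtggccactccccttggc
NOTCH2 9.71 kb downstream, higher (chr1:120090972-120091172): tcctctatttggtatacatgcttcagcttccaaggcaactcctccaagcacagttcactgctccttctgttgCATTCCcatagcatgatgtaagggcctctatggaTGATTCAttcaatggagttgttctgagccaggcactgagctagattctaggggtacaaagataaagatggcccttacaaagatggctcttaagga
NOTCH3 3.39 kb downstream, lower (chr19:15197505-15197705): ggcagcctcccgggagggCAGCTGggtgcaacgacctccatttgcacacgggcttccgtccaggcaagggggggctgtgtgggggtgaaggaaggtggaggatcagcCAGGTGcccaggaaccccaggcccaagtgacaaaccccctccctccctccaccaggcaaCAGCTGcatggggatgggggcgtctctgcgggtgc

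Among the ligands, DLL1 (chromosome 6, 170282206 to 170306565, minus strand, ENSG00000198719.9) had 12 regions. Of the 9 tested, 6 were lower and 1 was higher. A run of 5 neighbouring regions beyond the 3′ end of the gene, between 36.3 and 62.5 kb downstream of the 5′ end, was lower throughout, and FAM120B has the nearest 5′ end to each of them. FAM120B and the MANE Select transcript of DLL1 begin close together, so that the region at 36.3 kb lay 20.5 kb from the one and 20846 bp from the other. At 40.2 kb (170265811 to 170266785) the vector heights were 0.33, 0.67 and 0.58 and the MyoD-deleted heights −0.95, −1.04 and −1.0. The change of −1.53 (SE 0.166, adjusted p = 5.07e-06) corresponds to 2.88-fold. At 36.3 kb (170269520 to 170270563) heights were 0.17, 0.51 and 0.67 in vector and −0.69, −1.29 and −0.18 in MyoD-deleted libraries, a change of −1.17 (SE 0.228, adjusted p = 0.00102). At 62.5 kb (170243456 to 170245214) they were 1.70, 2.08 and 1.87 against 0.68, 0.51 and 0.96, a change of −1.17 (SE 0.133, adjusted p = 8.23e-06). In these 3 regions no MyoD-deleted library reached a vector library. None of them passed by rank (adjusted p = 0.0751, 0.610 and 0.0799). The remaining regions of the run, at 55.8 and 49.0 kb and named after their values were seen, changed by −0.83 (SE 0.206) and −0.96 (SE 0.186) and passed by both height (adjusted p = 0.00631 and 0.000995) and rank (0.0448 and 0.0300). Another lower region in intron 4 of DLL1 changed by −0.38 (adjusted p = 0.0442, limma) with groups that overlapped. That region did not pass by rank (adjusted p = 0.204) or without centring (−0.18, adjusted p = 0.334). The higher region lay 38.5 kb upstream, in intron 4 of FAM120B (170344634 to 170345429). Its heights rose from −1.75, −1.05 and −1.24 to −0.40, −0.80 and −0.47, a change of 0.79 (SE 0.220, adjusted p = 0.0131). It also passed by rank (adjusted p = 0.0475), and it did not pass by height without MyoD-deleted replicate 1 (0.71, adjusted p = 0.0724).

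JAG1 (chromosome 20, 10637684 to 10673999, minus strand, ENSG00000101384.12) had 11 regions and the nearest 5′ end to all of them. Of the 5 tested, 0 were lower by limma (0 also at an unadjusted p under 0.05, by height, by rank and without centring) and 1 was higher, 69.3 kb downstream in intron 6 of SLX4IP (10604019 to 10605252). Vector heights there were −0.19, −0.56 and −0.65 and MyoD-deleted heights −0.03, 0.18 and 0.18, a change of 0.58 (SE 0.172, adjusted p = 0.0196). The groups did not overlap. The call was lost by rank (adjusted p = 0.410) and without vector replicate 2 (0.53, adjusted p = 0.0737), vector replicate 3 (0.49, 0.0785), MyoD-deleted replicate 2 (0.55, 0.0695) or MyoD-deleted replicate 3 (0.55, 0.0638).

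JAG2 (chromosome 14, 105140982 to 105168824, minus strand, ENSG00000184916.9) had 17 regions and 10 tested, all of which had a change below 0. Of these, 6 passed as lower. The highest of its regions, 44.1 kb upstream in intron 15 of BRF1 (105212535 to 105214809), stood at the 97.9th percentile of height in vector cells. Its heights were 2.58, 3.02 and 3.06 in vector and 1.83, 1.72 and 1.98 in MyoD-deleted libraries, a change of −1.05 (SE 0.120, adjusted p = 8.53e-06). It did not pass by rank (adjusted p = 0.285). A region 13.9 kb upstream, close to the 5′ end of NUDT14 (105182157 to 105183162), fell from 1.07, 1.35 and 1.52 to 0.21, 0.42 and 0.42, a change of −0.97 (SE 0.137, adjusted p = 6.61e-05). The rank test just missed the threshold there (adjusted p = 0.0509). In intron 5 of JAG2 itself (105152024 to 105154063), heights were 0.95, 1.19 and 1.31 in vector and 0.46, 0.63 and 0.47 in MyoD-deleted libraries, a change of −0.63 (SE 0.131, adjusted p = 0.00173). In all 3 the groups were apart. The rank of the intron 5 region barely moved (10.6 percentiles in vector and 10.7 in MyoD-deleted libraries, adjusted p = 0.981). The other 3 lower regions, all upstream of JAG2, changed by −0.57, −0.56 and −0.42 (adjusted p = 0.0293, 0.000311 and 0.0431, limma). None of the 3 passed by rank (adjusted p = 0.643, 0.860 and 0.739). Without centring, only the region with the change of −0.56 passed (adjusted p = 0.134, 0.0272 and 0.245). NUDT14 has the nearest 5′ end to each of the 3. By rank, 1 further JAG2 region passed as higher, although its height changed by −0.14.

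The ligand windows shown are those with the change of greatest size for each gene. The BRF1 window upstream of JAG2 holds 2 copies of CAGGTG and the JAG1 window the complement of TTCCCAC, an RBPJ-type motif, whereas the DLL1 window holds none of the motifs searched.
DLL1 40.2 kb downstream, lower (chr6:170266311-170266511): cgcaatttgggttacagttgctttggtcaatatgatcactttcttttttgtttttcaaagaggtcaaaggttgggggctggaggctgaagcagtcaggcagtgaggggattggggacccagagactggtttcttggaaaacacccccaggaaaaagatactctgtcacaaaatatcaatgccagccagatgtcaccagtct
JAG1 69.3 kb downstream, higher (chr20:10604612-10604812): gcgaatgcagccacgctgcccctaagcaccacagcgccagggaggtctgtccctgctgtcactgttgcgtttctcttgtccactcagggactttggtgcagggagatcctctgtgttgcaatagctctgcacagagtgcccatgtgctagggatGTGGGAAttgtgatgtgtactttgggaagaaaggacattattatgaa
JAG2 44.1 kb upstream, lower (chr14:105212850-105213050): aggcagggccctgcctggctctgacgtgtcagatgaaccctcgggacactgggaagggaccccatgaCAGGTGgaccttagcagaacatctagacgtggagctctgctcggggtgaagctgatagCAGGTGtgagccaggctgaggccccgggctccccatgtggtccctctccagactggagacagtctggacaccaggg

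HES1, the repressor induced by Notch in many tissues (chromosome 3, 194136148 to 194138732, plus strand, ENSG00000114315.4), had 4 regions. All 4 were tested, had the 5′ end of HES1 as the nearest and had a change below 0, and 2 passed as lower. The region 37.8 kb upstream (194097773 to 194098991) had heights of 1.63, 1.97 and 1.84 in vector and 1.26, 0.98 and 1.29 in MyoD-deleted libraries, a change of −0.64 (SE 0.122, adjusted p = 0.000862). Every MyoD-deleted library lay below every vector library, although the rank test was not passed (adjusted p = 0.627). The 5′ region (194133903 to 194136289, summit 1.16 kb upstream) had heights of 1.74, 1.99 and 2.03 in vector and 1.46, 1.58 and 1.66 in MyoD-deleted libraries, a change of −0.35 (SE 0.110, adjusted p = 0.0260). This call was lost without vector replicate 2 (−0.32, adjusted p = 0.129), vector replicate 3 (−0.29, 0.104), MyoD-deleted replicate 1 (−0.30, 0.123) or MyoD-deleted replicate 2 (−0.36, 0.0667), without centring (−0.16, 0.377) and by rank (0.476).

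HES6, a HES relative known to favour myogenic and neuronal differentiation (chromosome 2, 238238267 to 238240662, minus strand, ENSG00000144485.11), had 9 regions. Of the 6 tested, 1 was lower, 2.43 kb upstream of the 5′ end (238242749 to 238243426). Its heights were 1.47, 1.75 and 1.69 in vector and 0.39, 0.49 and 0.83 in MyoD-deleted libraries. The groups were clearly apart, with a change of −1.07 (SE 0.134, adjusted p = 1.98e-05), a 2.10-fold fall. The rank test gave an adjusted p of 0.0504. The 5′ region of HES6, whose summit is 0.498 kb downstream of the end, changed by −0.05 (SE 0.115). A gained region 24.1 kb downstream (238216364 to 238217093), nearest to ILKAP, had low heights of −2.27, −2.46 and −2.00 in the MyoD-deleted libraries. The highest region, at the neighbouring PER2, changed by −0.03 (SE 0.124).

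HEY1, a hairy-related repressor (chromosome 8, 79762371 to 79767857, minus strand, ENSG00000164683.19), had 6 regions, all with its 5′ end as the nearest, and 4 were tested. The region 33.0 kb upstream (79800260 to 79801087) was lower, with heights of −0.21, −0.28 and −0.21 in vector and −1.61, −1.29 and −1.56 in MyoD-deleted libraries. The vector libraries were nearly equal and stood above all MyoD-deleted libraries, with a change of −1.25 (SE 0.190, adjusted p = 0.000119). This region also passed by rank, moving from percentile 73.8 to 27.9 (adjusted p = 0.00669). The other 3 regions of HEY1 had changes below 0 that did not pass.

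HEYL (chromosome 1, 39623435 to 39639643, minus strand, ENSG00000163909.8), another hairy-related repressor induced by Notch, had 15 regions, of which 10 were tested and 2 were lower. The region 6.88 kb upstream (39646080 to 39647211), at percentile 97.3 of height in vector cells, had heights of 2.77, 2.83 and 2.77 in vector and 2.17, 2.18 and 2.36 in MyoD-deleted libraries. The groups were apart, with a change of −0.55 (SE 0.0914, adjusted p = 0.000255). In intron 1 (39632596 to 39633680) heights fell from 1.42, 1.87 and 2.02 to 1.35, 1.22 and 1.29, a change of −0.48 (SE 0.134, adjusted p = 0.0136). The call in intron 1 was lost without vector replicate 2 (−0.43, adjusted p = 0.0804), vector replicate 3 (−0.35, 0.0913) or MyoD-deleted replicate 2 (−0.45, 0.0583), and without centring (−0.29, 0.124). Neither region of HEYL passed by rank (adjusted p = 0.157 and 0.559).

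Windows of the effector regions are shown for the change of greatest size at HES1, HES6 and HEYL and for the HES1 5′ region, which was added after its value was seen as the only 5′ region that passed. CAGCTG stands in both HES1 windows and in the lower HES6 window, 12 bp from its summit.
HES1 37.8 kb upstream, lower (chr3:194098239-194098439): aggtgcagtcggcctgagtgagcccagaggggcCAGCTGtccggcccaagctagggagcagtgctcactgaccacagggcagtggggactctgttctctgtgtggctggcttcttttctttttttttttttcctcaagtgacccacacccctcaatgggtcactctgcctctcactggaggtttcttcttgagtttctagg
HES1 1.16 kb upstream, lower (chr3:194134890-194135090): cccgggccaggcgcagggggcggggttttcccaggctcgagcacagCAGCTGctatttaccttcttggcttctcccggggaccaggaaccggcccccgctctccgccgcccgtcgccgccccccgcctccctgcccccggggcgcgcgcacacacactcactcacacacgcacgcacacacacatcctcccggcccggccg
HES6 2.43 kb upstream, lower (chr2:238242993-238243193): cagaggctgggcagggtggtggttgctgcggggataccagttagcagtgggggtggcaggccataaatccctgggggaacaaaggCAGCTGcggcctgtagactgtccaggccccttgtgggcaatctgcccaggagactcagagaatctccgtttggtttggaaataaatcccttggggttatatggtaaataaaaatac
HEYL 6.88 kb upstream, lower (chr1:39646425-39646625): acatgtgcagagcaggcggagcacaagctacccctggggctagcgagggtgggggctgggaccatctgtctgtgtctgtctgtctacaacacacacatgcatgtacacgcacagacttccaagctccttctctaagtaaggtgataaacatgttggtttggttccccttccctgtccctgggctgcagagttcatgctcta

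**Figure D5:**
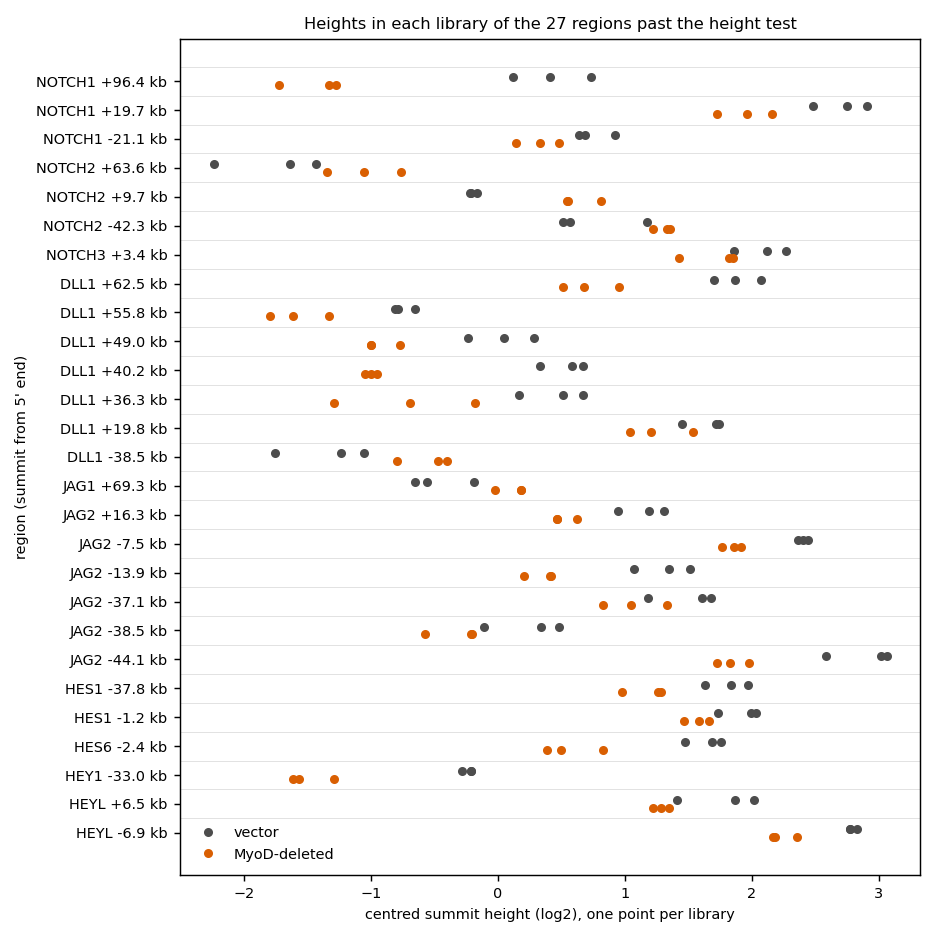
Each row is 1 of the 27 regions past the height test, named by gene and distance of the summit from the 5′ end (kb), with 1 point per library (grey, vector; orange, MyoD-deleted) at its centred summit height (log2). Grey points lie to the right of orange points in 20 of the 22 lower regions without overlap, and to the left in all 5 higher regions.

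Motifs were counted within 100 bp of the summit on both strands, as matches of letters that do not show binding. The E boxes CAGCTG, which reads the same on both strands, and CACCTG cannot share the same 6 letters. CAGCTG was found in 14 of the 22 lower regions (63.6%), in 12 of the 57 tested regions that did not pass (21.1%) and in 1 of the 5 higher regions (20%). The same motif stood in 57.1% of all lower regions and 27.8% of all tested regions. CACCTG was found in 9 of the 22 (40.9%, beside 29.9% of all lower and 15.3% of all tested regions), and either one in 17 of the 22 (77.3%, beside 72.6% and 38.7%). The share with an E box in the lower regions near these genes was thus close to that of lower regions over the genome. TGANTCA, the AP-1 motif, was found in 1 of the 22 lower and 2 of the 5 higher regions (4.55% and 40%, beside 18.4% of all lower and 39.6% of all higher regions). TTCCCAC, an RBPJ motif, was found in 8 of the 84 tested regions (9.52%, beside 4.85% of all tested regions) and in 2 of the 22 lower ones. CACGCG, a site of HES and HEY factors, was found in 6 of the 84 (7.14%, beside 4.87%). The 84 regions had a median GC content of 60.2% in these windows, beside 54.2% over all tested regions, and the part of GC content in these shares was not tested.

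The lower regions were not all close to the genes they were given to. Of the 22, 5 lay in the body of the member (22.7%), beside 47 of all 144 member regions, tested or not. For 10 of the 22 no other gene began closer to the summit than the member did (45.5%). That held for 54.9% of the 144, tested or not, and for 49 of the 84 tested. Of the 5 higher regions, the member had the nearest 5′ end for 4 (80%). Among 12 tested regions within 5 kb of a member's 5′ end, 3 were lower (25%) and 0 higher by limma. At an unadjusted p under 0.05 in limma, 0 were higher by height, 1 by rank and 0 without centring. Within 20 kb, 10 of 33 were lower (30.3%) and 1 was higher (3.03%). Of 51 more than 20 kb away, 12 were lower (23.5%) and 4 higher (7.84%). Over all tested regions, 12.8% were lower and 11.4% higher. Peak lists do not tell which gene a region acts on.

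Of 51 other genes of the pathway (further ligands and receptors, the RBPJ complex and its corepressors, glycosyltransferases, proteases, ubiquitin ligases and NUMB proteins), 43 had a 5′ region called in all libraries. At an adjusted p under 0.05 (limma), 2 of the 43 were lower and 0 higher, beside 3.38% and 3.73% of all 5′ regions. At an unadjusted p under 0.05, 5 were lower and 0 higher by height and 2 lower and 4 higher by rank. At the adjusted threshold, 0 were lower and 1 was higher by rank (POFUT1, rank change 0.718, adjusted p = 0.0158). Without centring, 1 was lower and 4 were higher at that threshold. DLL4, a ligand of blood vessels and T cell precursors, had heights of 1.08, 1.62 and 1.64 in vector and 0.95, 0.78 and 1.01 in MyoD-deleted libraries. No MyoD-deleted library reached a vector library, and the change was −0.53 (SE 0.143, adjusted p = 0.0106). DTX3, a Deltex-type ubiquitin ligase, fell from 2.41, 2.90 and 2.86 to 1.94, 1.75 and 2.02, a change of −0.82 (SE 0.122, adjusted p = 0.000100). Neither passed by rank (adjusted p = 0.820 and 0.0622), and the rank change of DLL4 had the opposite sign (0.0727). Without centring DLL4 did not pass (−0.34, adjusted p = 0.0829), while DTX3 did (−0.63, adjusted p = 0.000682). The 5′ regions of MFAP5 and HES7 were gained, and NOTCH4, HES5, LFNG and DTX1 had none. That of RBPJ was called in 0 vector and 1 MyoD-deleted library, and that of DLK1 in 1 vector and 0 MyoD-deleted libraries. These are regions at the GENCODE 5′ end, and other transcript starts of the 51 genes were not examined. Within 50 kb, RBPJ had 27 regions, of which 8 were called in all 6 libraries. Within 50 kb of these 51 genes lay 701 regions, of which 26 were gained (3.71%) and 10 lost (1.43%). Of the 367 tested, 44 were lower (12.0%) and 21 higher (5.72%), beside 26.2% and 5.95% near the 10 member genes. The difference between the lists was not tested.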

How the data were processed

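ATAC-seq was performed on 6 libraries of RH30 cells. Paired-end reads were mapped by the authors with Rsubread (hg38), filtered for proper pairs and passed to MACS2 library by library, without pooling. Demultiplexing with bcl2fastq 2.20 is named in the submitters' processing notes, and other versions are not given in the sources used here. Each deposited peak has a fold enrichment, which is the ratio of summit pileup over local background, and the −log10 of its p and q. The deposited score is 10 times the −log10 q. None is normalized between libraries.

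One mitochondrial peak per library was left out. Pileup and background were recovered from fold enrichment and −log10 p under a Poisson model (100% of peaks). Heights were compared with limma 3.58.1 (lmFit, eBayes with trend, two-sided, no block) over 47885 regions with Benjamini-Hochberg adjustment. Alternatives were ranks of fold enrichment (inverse normal), no centring, a replicate block, −log10 q of at least 5, 63140 peaks per library, peaks covering 50% of a region, each library left out, and other gene assignments. Named are each member's 5′ region, its gained, lost and highest regions, and those past the test, up to 3 per direction, except 1 gained region that is not reported here. Of the 51 other genes, those whose 5′ region passed are named. The genes, lists and tests were chosen with earlier results of these data known.

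Genes came from GENCODE version 44, and sequence from hg38. Some markers, regions and sequences are not reported here. Regions were checked with bedtools 2.31.1. The recovery of pileups, the limma fit of heights and the merging of peaks with gained and lost calls were tested on simulated data. Depth is unknown, so precision rests on 3 libraries per group. R 4.3.3, samtools 1.23.1 and Python 3.11.15 (matplotlib 3.10.9, pandas 2.3.3, pysam 0.24.0, numpy 2.4.6 and scipy 1.17.1) were used.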

Additional observations from a re-analysis of the deposited data

How the results depend on the processing

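Relative to 22 lower, 5 higher, 3 gained and 1 lost region, ranks of fold enrichment gave 4 lower and 2 higher, and the absence of centring 15 lower and 13 higher. With −log10 q of at least 5, 1 region was gained and 2 were lost, with equal numbers of peaks 1 was gained, and with 50% coverage 2 were lost. Restricting regions to the gene body and 5 kb upstream left 7 of 31 tested regions lower (22.6%, against 12.8% of all regions). There 2 were higher (6.45%, against 11.4%), and of 54 regions 0 were gained and 0 lost. The nearest 5′ end rule left 10 of 49 lower (20.4%) and 4 higher (8.16%), with 0 of 79 gained. Leaving out each library gave 15 to 25 lower, 2 to 6 higher, 3 to 7 gained and 1 to 3 lost. In these fits 17.2% to 29.8% of the tested regions were lower, against 8.96% to 14.1% of all regions. The higher ones made up 2.3% to 7.14%, against 7.33% to 13.4%. Of the 24 named regions away from 5′ ends, 20 were named because they passed, so that count is set by the naming rule. Of the 24, 3 passed by rank, 17 without centring and 14 to 20 without 1 library. With equal numbers of peaks, the NOTCH1 region 96.4 kb downstream was not among the regions tested. With −log10 q of at least 5, the NOTCH2 region in intron 1 was not. With 50% coverage, 20 of the 24 were tested. That NOTCH1 region, the JAG2 regions in intron 5 and in BRF1, and the lower HEY1 region were left untested there. The NOTCH1 and HEY1 regions are among the 3 that passed by rank. The single 5′ call, at HES1, became 0 by rank, without centring and in some fits without 1 library (0 to 1).

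By rank, the sign changed at HES6 +498 (0.586), HEY1 −134 (0.0483), NOTCH2 +31128 (−0.0818), NOTCH3 +75231 (−0.0046), JAG2 +16316 (0.0103) and HES6 −48210 (0.0414), of which JAG2 +16316 alone had passed by height. Names give the distance of the summit from the 5′ end in bp. Without centring it changed at HES6 +498 (0.138), HEY1 −134 (0.0869), NOTCH1 +62484 (0.0236) and HES6 −48210 (0.160). Leaving out 1 library changed the sign only at named regions that had not passed, with a range of −0.139 to 0.145 at NOTCH1 +1, −0.0803 to 0.0848 at DLL1 −64, −0.0009 to 0.154 at JAG1 −173, −0.126 to 0.0887 at HES6 +498, −0.223 to 0.0221 at HEY1 −134, −0.0333 to 0.0827 at HEYL −181, −0.0328 to 0.111 at NOTCH2 +31128 and −0.179 to 0.106 at HES6 −48210. The cause was not tested.

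Same-numbered libraries did not deviate together (correlations −0.04, −0.20 and 0.09), and 1 of 3 vector libraries correlated best with its own number. With the replicate number as a block, 21 regions were lower and 4 higher, NOTCH1 −21116 (adjusted p = 0.0583) and NOTCH2 +63642 (adjusted p = 0.0580) being those no longer called.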
